A study of Mus musculus with 743 samples.

Results

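The 8 genes described here handle iron: Hfe, Tfrc, Slc11a2, Slc40a1, Slc39a14, Fth1, Ftl1 and Ireb2. They were chosen by name, as 8 of the 25700 genes in the deposited count table, and they were chosen with earlier results of these data known, so the tests below describe the size of each difference against the spread between plates and are no independent evidence. The study followed Schwann cells (SCs), the glia of peripheral nerves, as they leave the cell cycle and start to wrap axons with myelin, and the cells reported here came from sciatic nerves of mice at postnatal day 1. All cells carried the same alleles, in a C57bl/6J background: a Cre driver of the Schwann cell lineage, which recombined a floxed stop in a Rosa26 eYFP reporter, and a DsRed reporter under a ubiquitously active beta-actin promoter. Single eYFP-positive cells were sorted into wells and sequenced with Smart-seq2, a full-length protocol without molecular identifiers. No cell reported here was treated or mutant. Both sexes were pooled for each of the 2 plates, and the plates drew on different animals. Plates therefore serve as replicates (n = 2), since cells of 1 plate share their animals. The sort takes whatever the Cre has recombined, and reads from one well can be copies of few molecules.

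Of 743 wells, 621 had at least 1500 detected genes and were kept, 287 on plate 1 and 334 on plate 2. Kept cells held 26673 to 2291613 reads, with a median of 875315. Their classes were selected on 3 genes that are not among the 8: cells with at least 50 CPM (read counts scaled to a total of 1000000 per cell) of Mki67 and Top2a together were called cycling (53 and 57 cells on plates 1 and 2), the remaining cells with at least 50 CPM of Ncmap were called promyelinating (59 and 60 cells), and the rest were called other (175 and 217 cells). Few cells lay near these thresholds. The lowest values inside were 63.4 CPM of Mki67 and Top2a and 50.3 CPM of Ncmap, and the highest outside were 44.2 and 43.3 CPM. The median of detected genes was lower in the other cells (2810) than in promyelinating (3606) and cycling cells (3469). The Schwann cell markers Sox10, S100b and Erbb3 were read in every class. A list of 10 promyelinating and myelinating markers summed to 17862 and 17881 CPM in promyelinating cells against 4621 and 5496 CPM in other cells. Of 7 immune markers, Ptprc, Tyrobp, Aif1, C1qa and C1qb had no read in any class, and the list summed to between 2.77 and 20.7 CPM. Csf1r was read in 31 other, 16 promyelinating and 11 cycling cells, and Cd68 in 7, 2 and 3. A list of 6 erythroid markers summed to at most 0.312 CPM and 5 endothelial markers to at most 2.91 CPM. Of 4 mural markers, Acta2 and Rgs5 had no read, and the list summed to 24.8 to 56.8 CPM over the classes. Its member Pdgfrb had 20.7 and 37.8 CPM in other, 43.7 and 13.8 CPM in promyelinating and no read in cycling cells (adjusted p = 0.00976 for cycling against other cells by edgeR). Of 3 fibroblast-like markers, Pdgfra had no read, and the list summed to 36.7 and 10.5 CPM in other, 26.6 and 19.9 CPM in promyelinating, and 0 and 0.577 CPM in cycling cells. The part of these markers in the differences below was not tested. A dissociation-response list of 8 genes summed to 5842 and 6380 CPM in other cells, 4726 and 7160 CPM in cycling cells, and 2205 and 2418 CPM in promyelinating cells. Differences without the cells of the other class that held Atf3, a gene of this list, are given for Hfe and Tfrc below. The part of the list as a whole was not tested.

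Cells take up transferrin-bound iron through the transferrin receptor Tfrc and move it out of endosomes through the divalent metal transporter Slc11a2, while Slc39a14 carries iron that is not bound to transferrin. Iron is stored in ferritin shells built of heavy (Fth1) and light (Ftl1) chains and leaves the cell through ferroportin, Slc40a1. Hfe is a relative of the class I major histocompatibility proteins that binds Tfrc and is known for its role in hereditary haemochromatosis. Ireb2, also called IRP2, binds hairpins in messenger RNAs named iron responsive elements (IREs): in a 5′ untranslated region it holds back translation, and in the 3′ region of Tfrc it protects the message from decay. In the central nervous system, the cells that form myelin are known for their high iron content.

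The hairpins are shown because IREs are what ties the regulator Ireb2 to the other messages. GENCODE transcripts of build GRCm38 were searched on the strand of the transcript for a C, 5 stem bases, the loop CAGTGN and 5 bases that pair with the stem, G with U pairs included. Capitals mark the loop, and 3 flanking bases are printed on each side of the hairpin, whose coordinates are given. The first 3 lie in 5′ untranslated regions, of Fth1 at chr19:9982738-9982754 on the plus strand, of Ftl1 at chr7:45459785-45459801 on the minus strand, and of Slc40a1 at chr1:45925471-45925487 on the minus strand. The other 4 lie in the 3′ untranslated region of Tfrc, on the plus strand at chr16:32631225-32631241, chr16:32631604-32631620, chr16:32631669-32631685 and chr16:32631716-32631732.
Fth1: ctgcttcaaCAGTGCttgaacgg
Ftl1: ttgcttcaaCAGTGTttgaacgg
Slc40a1: cttcagctaCAGTGTtagctaag
Tfrc a: tatcggaagCAGTGCcttccata
Tfrc b: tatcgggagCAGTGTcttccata
Tfrc c: tatcggagaCAGTGAtctccata
Tfrc d: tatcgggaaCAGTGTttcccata

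No hairpin of this form was found in the transcripts of Hfe, Slc11a2, Slc39a14 or Ireb2, which says only that these letters are not there. Of 22527 protein-coding genes searched in the same way, 31 (0.138%) had such a hairpin in a 5′ untranslated region and 144 (0.639%) in a 3′ untranslated region. The 2 ferritin hairpins lay within a single exon each and the loops of Fth1 and Ftl1 ended in different bases. In RefSeq start-site windows of the same genome, the 50 bases after the start held the loop CAGTGN in 2224 of 27025 genes (8.23%) and in 0 of the 5 members with a window (Hfe, Tfrc, Fth1, Ftl1 and Ireb2). A match is a description of sequence and not a measured binding site.

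The ferritin chains were the only members read in nearly every cell. Fth1, the heavy chain that oxidises iron (chromosome 19, 9980598 to 9985098, plus strand), had reads in 392 of 392 other, 118 of 119 promyelinating and 109 of 110 cycling cells. In sums over the cells of a plate, Fth1 reached 2689 and 2153 CPM in other cells on plates 1 and 2, 1728 and 1574 CPM in promyelinating cells, and 2178 and 1656 CPM in cycling cells. The other cells lay above the promyelinating cells on both plates, 1.56-fold on plate 1 and 1.37-fold on plate 2, while the cycling cells lay between them on each plate and overlapped both classes in range. The fitted difference between promyelinating and other cells was -0.48 ± 0.20 (log2, SE) with an adjusted p of 0.433 by edgeR's quasi-likelihood test, and so did not pass.

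Ftl1, the light chain that helps iron mineralise in the shell (chromosome 7, 45457944 to 45459884, minus strand), had reads in all 621 cells. Its sums were 9841 and 8178 CPM in other cells, 10402 and 7850 CPM in promyelinating cells, and 6859 and 5912 CPM in cycling cells. The cycling cells were the lowest class on both plates and did not overlap the other classes, whereas promyelinating and other cells overlapped. Against cycling cells, Ftl1 in promyelinating cells was 1.52-fold higher on plate 1 and 1.33-fold on plate 2, a fitted difference of 0.46 ± 0.18 (log2, SE) with an adjusted p of 0.209 by edgeR. With the plate as a block the difference was 0.45 and passed, at an adjusted p of 0.0101. Against other cells the fitted difference in cycling cells was -0.36 ± 0.18 (log2, SE), with an adjusted p of 0.552.

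The balance between the chains differed between the classes in these sums. Ftl1 gave 6.02 and 4.99 reads per Fth1 read in promyelinating cells, 3.66 and 3.8 in other cells, and 3.15 and 3.57 in cycling cells. The promyelinating ratio was the highest on both plates, 1.64-fold and 1.31-fold that of other cells. Divided by the summed exon length of each gene, these ratios become 15.6 and 12.9 in promyelinating, 9.47 and 9.83 in other, and 8.15 and 9.24 in cycling cells. With 2 plates a side, an exact two-sided permutation test of the ratio between promyelinating and other cells gave p = 0.333. It did not pair the classes of a plate, and 0.333 is the smallest p it can give. Every pair of classes had this p, so the test cannot tell the classes apart. The higher ratio went with lower Fth1 against the other cells and with higher Ftl1 against the cycling cells. Together the chains took between 0.757% and 1.25% of all reads of a class and plate.

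**Figure D1:**
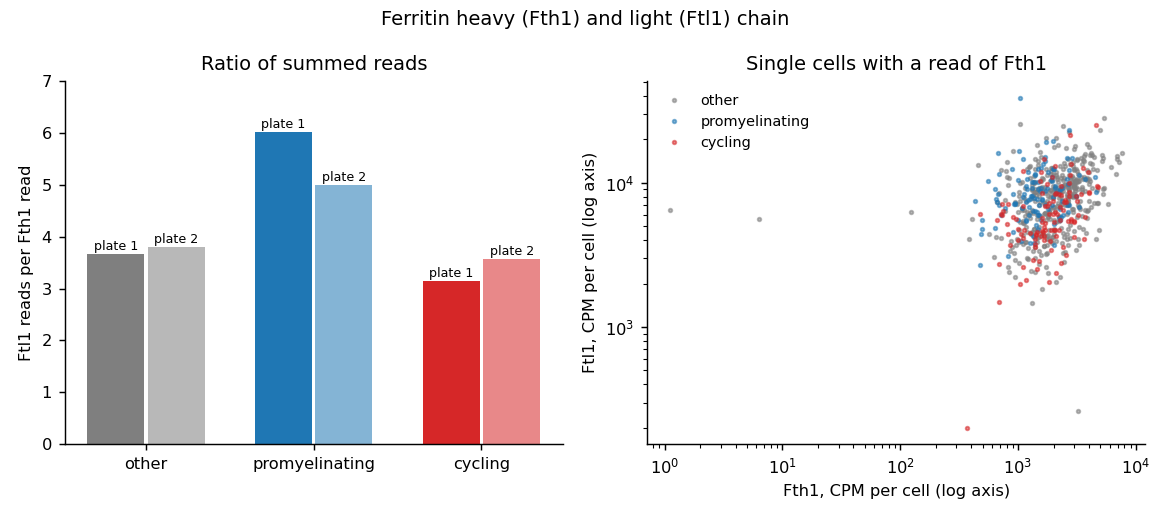
The left panel shows Ftl1 reads per Fth1 read in sums over the cells of each class and plate as bars from 0, and the right panel shows CPM of Fth1 and Ftl1 in each single cell with an Fth1 read on log axes, coloured by class. The promyelinating bars, 6.02 and 4.99, stand above the other 4, which lie between 3.15 and 3.8, and the single cells of the 3 classes overlap widely.

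Within a cell the chains went together weakly. Over cells of all classes, the correlation of Fth1 with Ftl1 (Pearson's r of log values) was 0.30 on plate 1 (287 cells) and 0.27 on plate 2 (334 cells), and within classes it ran from 0.23 to 0.50. These cells share libraries and plates, and the value is a description. The remaining pairs had an r between -0.13 and 0.10 on each plate, where the pairs with Slc40a1 have a value on plate 2 alone, since that gene had no read on plate 1. A ferritin pseudogene in the table, Ftl1-ps1, had between 52.8 and 111 CPM and reads in 98.2% to 100% of the cells of each class. Reads of near-identical ferritin copies could have been split, moved between them or dropped by the counting. The reads left on Ftl1-ps1 do not bound that error, so the ferritin levels and their ratio are uncertain by an unknown amount. A pair of annotated genes also overlaps Ftl1, Gm22133 on its strand and Gm10252 on the opposite strand.

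Tfrc, which brings transferrin-bound iron into the cell (chromosome 16, 32608920 to 32632794, plus strand), was read in few cells of any class: 21 of 392 other (5.36%), 8 of 119 promyelinating (6.72%) and 5 of 110 cycling cells (4.55%). The exact 95% intervals of these shares, 3.35 to 8.07, 2.95 to 12.8 and 1.49 to 10.3%, overlap, and cover counting error only. Its sums were 5.57 and 25.6 CPM in other cells, 1.27 and 4.96 CPM in promyelinating cells, and 4.36 and 3.37 CPM in cycling cells. The other cells were the highest on both plates, and the remaining classes overlapped. These sums rest on single cells: the 3 cells with most Tfrc reads held 75.8% of the reads in other cells, where the top cell had 1313 CPM, and 85.8% in promyelinating cells. The fitted differences from other cells, -2.23 ± 1.35 for promyelinating and -1.86 ± 1.34 for cycling cells (log2, SE), did not pass (adjusted p = 0.623 and 0.704 by edgeR).

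Slc11a2, the endosomal exporter of iron (chromosome 15, 100387898 to 100425072, minus strand), had 11.5 and 4.96 CPM in other cells, 13.9 and 3.73 CPM in promyelinating cells, and 17.4 and 8.92 CPM in cycling cells. Plate 1 was higher than plate 2 in every class. The cycling cells were the highest on each plate, but the ranges of the classes overlapped. It was read in 7.65% of other, 13.4% of promyelinating and 11.8% of cycling cells. Thinned to 50000 reads per cell, the shares as means of the 2 plates went from 7.91 to 6.33%, from 13.4 to 9.4% and from 11.9 to 6.48%, so that the cycling share came close to that of other cells. The gene Gm5475 lies opposite to Slc11a2, and the use of strand in the counting is not given in the sources used here. Its fitted differences, 0.17 ± 1.08 between promyelinating and other and 0.80 ± 1.08 between cycling and other cells (log2, SE), were smaller than their errors.

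Slc39a14, the carrier of iron without transferrin (chromosome 14, 70303469 to 70351425, minus strand), had 18.4 and 27.2 CPM in other cells, 7.25 and 9.37 CPM in promyelinating cells, and 6.83 and 2.04 CPM in cycling cells. The order other, promyelinating, cycling held on both plates, with no overlap between the classes, but promyelinating cells stood 1.06-fold above cycling cells on plate 1 and 4.59-fold on plate 2. The 3 cells with most reads held 61.3% of the Slc39a14 reads in other, 71.8% in promyelinating and 85.1% in cycling cells, whose plate 2 sum was 92 reads from 2 cells. The shares of cells with a read did not follow that order: 6.63% in other, 7.56% in promyelinating and 6.36% in cycling cells. Among cells with a read, the median was 157 CPM in other, 143 CPM in promyelinating and 97.1 CPM in cycling cells, and in other cells 4 cells held at least 500 CPM against 0 in each remaining class. The fitted differences from other cells were -1.37 ± 0.96 for promyelinating and -2.21 ± 0.99 for cycling cells (log2, SE), with adjusted p of 0.697 and 0.505 by edgeR.

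Ferroportin was all but absent from the reads. Slc40a1, the exporter (chromosome 1, 45908068 to 45926523, minus strand), had 35 reads in 1 cycling cell of plate 2 and none elsewhere. None of 392 other cells had a read, which allows a share of up to 0.765%, and none of 119 promyelinating cells, which allows up to 2.52% (3 counts of the total). It was filtered out of the fit, so that 7 of the 8 genes were tested. Cp, the ferroxidase that works beside ferroportin, was read in every class, at 54.6 and 73.4 CPM in other cells, 14.8 and 13 CPM in promyelinating cells, and 25.2 and 18.6 CPM in cycling cells. The other cells stood above the remaining classes on both plates. The fitted difference to promyelinating cells was -2.12 ± 0.54 (log2, SE) and did not pass in edgeR (adjusted p = 0.123). In DESeq2 this difference passed.

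**Figure D2:**
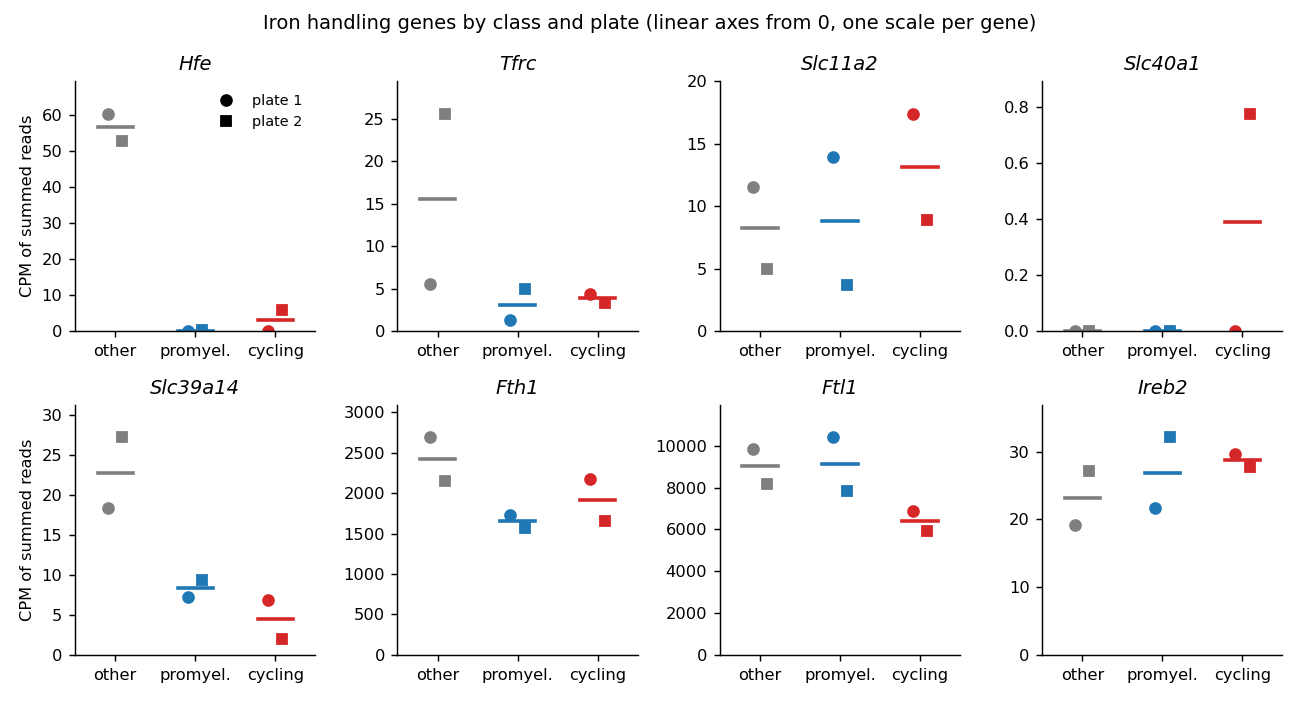
Each panel shows 1 gene, with CPM of reads summed over the cells of a class on a linear axis from 0, circles for plate 1, squares for plate 2 and a bar at their mean. Hfe in other cells sits at 60.4 and 52.9 CPM with every remaining value at or below 6.01 CPM, and Slc40a1 is at 0 in 5 of 6 sums.

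Hfe (chromosome 13, 23702034 to 23710854, minus strand) was read mostly in the other cells. Its sums were 60.4 and 52.9 CPM in other cells, 0.0192 and 0.346 CPM in promyelinating cells, and 0.105 and 6.01 CPM in cycling cells. The other cells were the highest class on both plates without overlap, and the promyelinating and cycling ranges overlapped. In reads, other cells had 9663 and 9149, promyelinating cells had 1 and 18, and cycling cells had 5 and 271. Against cycling cells, the other cells were 574-fold higher on plate 1, where the cycling reads came from 1 cell, and 8.8-fold higher on plate 2. Against promyelinating cells they were 153-fold higher on plate 2, and plate 1 had too few reads for a fold.

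Hfe was not spread evenly over the other cells. It was read in 38 of 392 (9.69%, exact 95% interval 6.95 to 13.1%), 19 on each plate, against 2 of 119 promyelinating (1.68%, 0.204 to 5.94%) and 5 of 110 cycling cells (4.55%, 1.49 to 10.3%). These intervals pool the cells of both plates and cover counting error only. The median other cell had no read, but among the 38 cells the median was 428 CPM and the highest value 1609 CPM. In the 2 promyelinating cells it was 2.5 and 156 CPM, and in the 5 cycling cells the highest was 496 CPM. Within the other class, the 3 cells with most reads held 29.2% of its Hfe reads, so the class value did not rest on 1 cell.

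**Figure D3:**
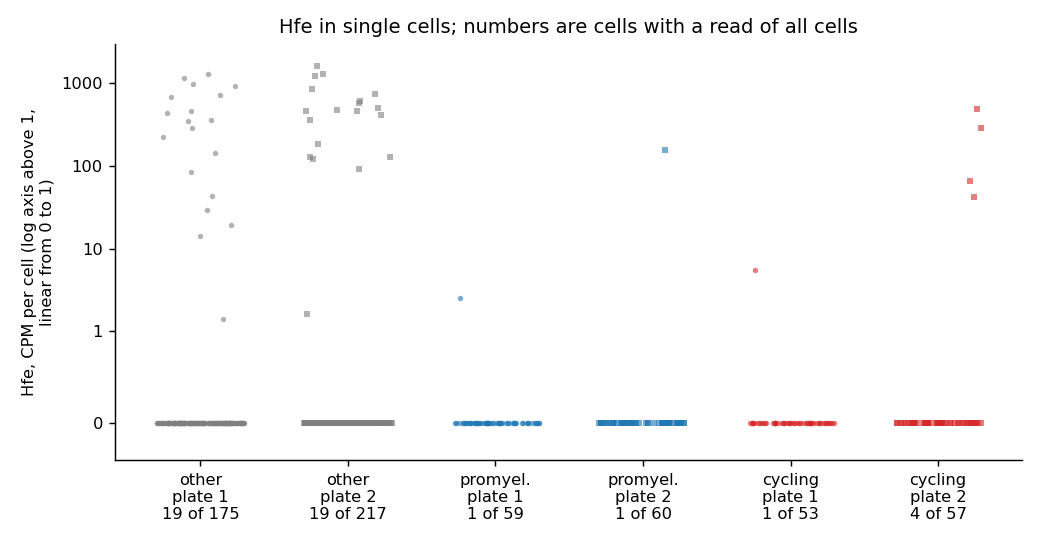
Each point is a cell, with Hfe in CPM on an axis that is linear from 0 to 1 and logarithmic above, split by class and plate; the last line of each label counts cells with a read. On each plate 19 other cells rise from the line at 0, most of them above 100 CPM, against 1 promyelinating cell on each plate and 1 and 4 cycling cells.

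Each cell was also thinned to 50000 reads, which sets the cells to 1 depth and kept 390 other, 117 promyelinating and 109 cycling cells. Hfe then had a read in 10.3 and 7.91% of other cells on plates 1 and 2, 1.69 and 1.72% of promyelinating cells, and 0 and 7.02% of cycling cells. Both shares lay below that of the other cells on each plate, by little for the cycling cells of plate 2. The other cells were divided at 50 CPM of Atf3, a stress-response transcription factor of the dissociation list, to set Hfe beside that gene. Hfe was 40.6 CPM in cells with Atf3 and 67.4 CPM in cells without on plate 1, and 81.2 and 41.4 CPM on plate 2. The order turned between plates. Atf3 is a single gene of the list, and the part of the list as a whole in the Hfe difference was not tested. The Atf3 cells of the other class were then left out, a choice made after seeing the data. The fitted difference of Hfe between promyelinating and other cells was then -8.14 (log2). Without the 39 cells that held at least 50 CPM of immune or erythroid markers it was -8.20, the value in all cells. Tfrc was higher with Atf3 on both plates, at 14.8 and 75.2 CPM against 2.32 and 5.31 CPM without. These sums rest on few cells: Tfrc was read in 3 of 49 and 5 of 67 cells with Atf3. Without Atf3 it was read in 4 of 126 and 9 of 150 cells. The shares were 6.12 and 7.46% against 3.17 and 6%, close to each other on plate 2. The Tfrc differences from other cells were also fitted without the Atf3 cells of the other class, with those of the cycling class kept. They shrank to -0.21 for promyelinating and turned to 0.14 for cycling cells. The cycling sums held 116 and 168 CPM of Atf3 on plates 1 and 2.

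In the edgeR fit, the Hfe difference between promyelinating and other cells was -8.20 ± 2.03 (log2, SE), with an adjusted p of 0.112 that did not pass. With the plate as a block it was -9.88 and passed, at an adjusted p of 0.0451. DESeq2 gave an adjusted p of 2.40e-06, and the range over all alternatives was 2.40e-06 to 0.22. Since the promyelinating sums hold 19 reads in 2 cells, the size of this fold depends on the model and is no bound. Between cycling and other cells the difference was -4.12 ± 1.67 (log2, SE; adjusted p = 0.461 by edgeR), and between promyelinating and cycling cells it was -4.08 ± 1.71 (adjusted p = 0.23 by edgeR, 0.0382 by DESeq2). The sizes differed between plates. With plate 1 or plate 2 left out, the first was -3.14 or -9.16, and the second was -4.12 or, with the single promyelinating read raised to the floor of 3 reads, -0.87.

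Of the partners of Hfe, B2m, the light chain that class I proteins need at the cell surface, was read in 97.2% of other, 100% of promyelinating and 99.1% of cycling cells, at 838 to 1074 CPM in all 6 sums. Tfr2, the second transferrin receptor, had reads in 1 other cell only, and Hfe2 (hemojuvelin) in none of the 621 cells. Hamp, the hepcidin hormone that removes ferroportin from the membrane, had 1 read in each of 2 cells. Its near copy Hamp2 had 263 and 599 reads in promyelinating cells, in 8 cells, 12 and 20 reads in other cells and none in cycling cells. Reads could have been split between Hamp and Hamp2. Hfe and Tfrc, whose proteins bind each other, had reads together in 1 cell, of 45 cells with Hfe and 34 with Tfrc. Both genes were read in so few of the 621 cells that nothing is read from this count.

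The genes most like Hfe across cells were Ngfr, Id3, Anxa1, Mylip and Jun, of 7893 genes read in at least 10% of cells. Their mean Pearson's r over the 2 plates was 0.22, 0.21, 0.21, 0.20 and 0.17. For Tfrc the highest were Slc2a1 (0.20), Rabgef1 (0.19), Gemin2 (0.17), Adamts17 (0.16) and Atad3a (0.16). In counts this sparse, correlations of that size are descriptions and no finding.

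Ireb2, the IRE-binding regulator (chromosome 9, 54863789 to 54912530, plus strand), had 19.2 and 27.2 CPM in other cells, 21.7 and 32.1 CPM in promyelinating cells, and 29.7 and 27.8 CPM in cycling cells. The promyelinating range overlapped both of the others, and the other range ended just under the cycling one. More promyelinating cells had a read, 34.5% (exact 95% interval 26 to 43.7%) against 17.6% (14 to 21.7%) of other and 21.8% (14.5 to 30.7%) of cycling cells. These intervals pool the cells of both plates and cover counting error only. By plate the shares were 40.7 and 28.3% in promyelinating, 20.6 and 15.2% in other, and 24.5 and 19.3% in cycling cells. Among cells with a read, the median was 24.4 CPM in promyelinating against 89.6 CPM in other cells. Thinned to 50000 reads, the shares were 23.7 and 20.7% in promyelinating cells on plates 1 and 2, 14.9 and 12.1% in other cells, and 21.2 and 10.5% in cycling cells. The promyelinating share thus stayed above the other share on both plates but overlapped the cycling share. The level itself differed by 0.30 ± 0.57 (log2, SE) between promyelinating and other cells, less than its error. Promyelinating cells also had more detected genes (median 3606) than other cells (2810), and the part of this in the Ireb2 share was not tested.

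**Figure D4:**
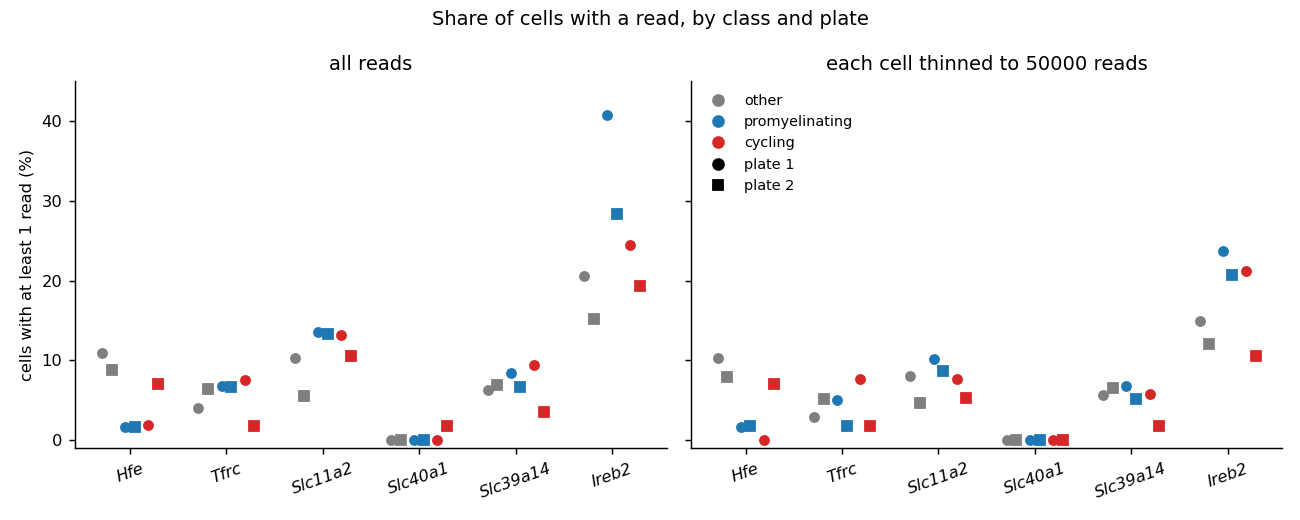
The share of cells with at least 1 read is shown for the 6 sparsely read genes by class and plate, with all reads on the left and with each cell thinned to 50000 reads on the right. The promyelinating share of Ireb2 falls from 40.7 and 28.3% to 23.7 and 20.7%, while the Hfe share of other cells goes from 10.9 and 8.76% to 10.3 and 7.91%.

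Among the regulators next to Ireb2, Aco1, which binds the same hairpins when it lacks its iron-sulphur cluster, ranged from 5.2 to 50.4 CPM with overlap between all classes. Fbxl5, which marks Ireb2 for breakdown when iron is plentiful, had 25.5 and 18.6 CPM in other cells, 27.8 and 27.5 CPM in promyelinating cells, and 5.71 and 7.17 CPM in cycling cells. The cycling cells were the lowest on both plates. The fitted difference of promyelinating to cycling cells was 2.06 ± 0.69 (log2, SE) and did not pass in edgeR (adjusted p = 0.142). In DESeq2 this difference passed. Ncoa4, which delivers ferritin to lysosomes, ranged from 8.09 to 27.4 CPM with overlap between all classes.

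Counted together, 0 of the 7 tested members passed edgeR's test at an adjusted p under 0.05 between promyelinating and other cells, where 1.78% of all 13289 genes tested passed. The count was also 0 of 7 between cycling and other cells (0.993% of all genes) and 0 of 7 between promyelinating and cycling cells (5.93%). At an unadjusted p under 0.05, 2 of 7 members were called in the first comparison (Hfe and Fth1, both lower in promyelinating cells), 1 in the second (Hfe) and 2 in the third (Hfe lower and Ftl1 higher in promyelinating cells), where 11.2, 10.1 and 20.1% of all genes were. With the plate as a block, 1 (Hfe), 0 and 1 (Ftl1) members passed after adjustment, against 2.22, 1.16 and 6.64% of all genes. DESeq2 called 1 (Hfe), 0 and 1 (Hfe), against 7.75, 5.97 and 18.1% of all genes. The median difference of the 7 members was -0.48, -0.36 and -0.27 (log2) in the 3 comparisons, beside -0.07, -0.07 and -0.02 over all genes. The comparisons share their class sums, and the members were chosen with these data known, so these counts describe the genes and nothing is read from them.

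**Figure D5:**
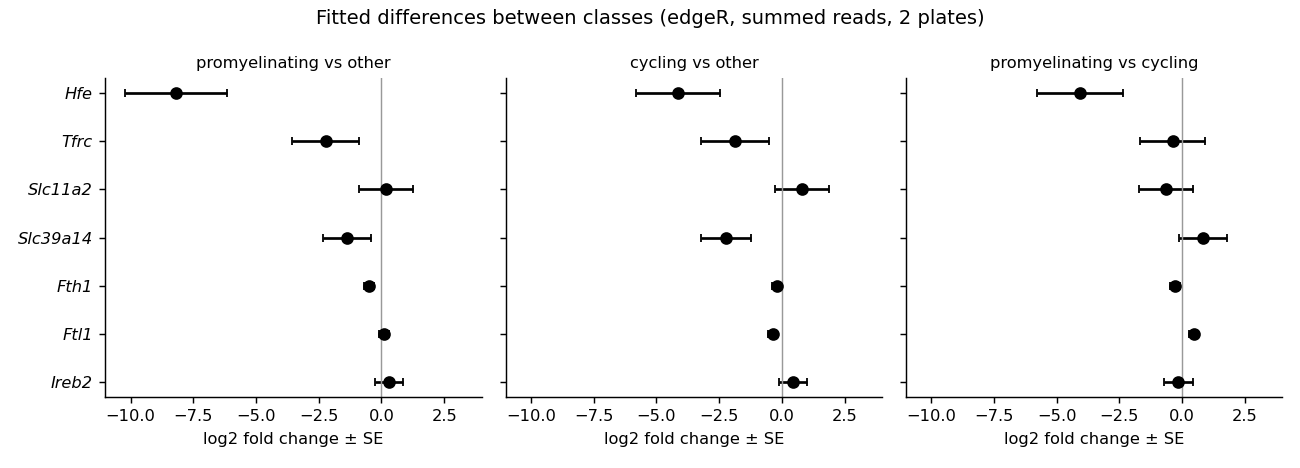
Fitted log2 fold changes of the 7 tested genes are shown as points with 1 SE on each side, for promyelinating against other, cycling against other, and promyelinating against cycling cells. Hfe lies farthest from 0 in each panel, at -8.20, -4.12 and -4.08, and the ferritin chains have the shortest error bars.

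Beyond the 8 genes, 62 further genes of iron and heme handling were listed, of which 46 were tested. Between promyelinating and other cells, 1 passed as higher and 0 as lower by edgeR, between promyelinating and cycling cells again 1 and 0, and between cycling and other cells 0. At an unadjusted p under 0.05 the counts, in the same order, were 11, 7 and 5 of 46, beside 11.2, 20.1 and 10.1% of all genes. By DESeq2, 7, 7 and 2 passed after adjustment. As shares of the 46 genes, the edgeR counts were 2.17% in each comparison with promyelinating cells, beside 1.78% (against other) and 5.93% (against cycling) of all genes, and the DESeq2 counts were 15.2, 15.2 and 4.35%, beside 7.75, 18.1 and 5.97%. Between promyelinating and other cells, the DESeq2 share of 15.2% lay above the 7.75% of all genes. The unadjusted count of 11 of 46 also lay above the 11.2% of all genes. The remaining shares lay near or below those of all genes. The lists were chosen with earlier results of these data known, so nothing is read from these shares. The median difference of the 46 was -0.07 between promyelinating and other cells, the same as over all genes.

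The gene that passed by edgeR in both comparisons was Alad, which joins precursor molecules in an early step of heme synthesis. It rose to 548 and 531 CPM in promyelinating cells, against 119 and 199 CPM in other and 164 and 145 CPM in cycling cells, with no overlap. It had reads in 78.2% of promyelinating cells, 31.4% of other cells and 40.9% of cycling cells. The fitted differences were 1.85 ± 0.28 from other and 1.75 ± 0.28 from cycling cells (log2, SE), with adjusted p of 0.0141 and 0.00817 by edgeR. Among cells with at least 2500 genes, the first of these fell to 1.60 and no longer passed (adjusted p = 0.0745). By DESeq2, Hamp2 and Hmox1 passed in both comparisons beside Alad, and neither passed by edgeR. Hmox1 had 98.1 and 86.2 CPM in promyelinating, 42.7 and 45.1 CPM in other, and 38.8 and 31.3 CPM in cycling cells.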

How the data were processed

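The authors deposited raw read counts per gene and well, made with STAR 2.6.1c and featureCounts on build GRCm38.p5 per the submitters' processing notes; use of strand and of reads with several matches is not given in the sources used here. Gene IDs were matched to GENCODE M21 (25664 of 25700). The members and gene lists were chosen with earlier results of these data known. Other iron genes are named where they passed by edgeR, passed by DESeq2 in both comparisons with promyelinating cells, or are partners of a member. Counts were summed per plate and class (6 sums) and tested with edgeR 4.0.16 (TMM, filterByExpr, quasi-likelihood). Its p-values were adjusted by Benjamini-Hochberg over all genes that passed the filter, Mki67, Top2a and Ncmap included. These genes formed the classes and were left out of the counts of genes that passed, which leaves 13289 genes. The SE printed with an edgeR difference is the size of that difference divided by the square root of its quasi-likelihood F statistic. DESeq2 1.42.0 and limma 3.58.1 (pseudocount 1 or 10) were alternatives, and the procedure was tested on simulated data. The classes of a plate come from the same animals: same-plate deviations correlated at 0.151, 0.207 and 0.102 over 3713 genes, so a fit with the plate as a block stands beside the main values where it changes a call. No pair of wells held identical counts. Levels are CPM of summed reads, and shares above 0 carry exact Clopper-Pearson 95% intervals (a share of 0 has the limit that 3 counts of the total give). The intervals pool the cells of both plates and leave out the spread between plates. The search of whole transcripts for hairpins was added after the files were seen. Some marker genes are not reported here.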

Additional observations from a re-analysis of the deposited data

Results flagged for a closer look

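The 122 wells with fewer than 1500 detected genes entered no comparison, and 6 of the 8 genes had more than 3 reads there, above the limit of 0.143 CPM that a count of 0 allows. Over these wells together, Fth1 reached 2969 CPM (reads in 69 wells) and Ftl1 9869 CPM (81 wells). Ireb2 reached 28.9 CPM, from 2 wells, and Hfe 13.1 CPM, from 1 well. Tfrc reached 1 CPM and Slc11a2 0.668 CPM. Slc40a1 had 1 read, under the limit, and Slc39a14 had none. These wells have no class.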

How the results depend on the processing

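Counts of genes that passed moved by more than 1.5 times under some settings. For promyelinating against other cells the count was 237, and it became 1010 with DESeq2, 521 with no filter on low counts, 378 with limma on mean CPM and a pseudocount of 1, and 423 with cells thinned to 50000 reads. For cycling against other cells it was 132, and became 794, 316, 230 and 256 in these settings and 283 with a pseudocount of 10. For promyelinating against cycling cells it was 788, and became 2309, 1288 and 1340 in the first 3 and 1265 with a pseudocount of 10. Members called went from 0 to 1 for promyelinating against other cells with DESeq2, with the plate as a replicate block and with limma at a pseudocount of 10 (Hfe, adjusted p = 0.0344), and for promyelinating against cycling cells with DESeq2 (Hfe) and the plate block (Ftl1). The block changed no other call. Of 273 alternative values of the members' differences, 256 kept sign and side, 5 newly passed and 12 turned, none of the turned ones past the test. Tfrc in cycling against other cells turned to 0.14 with the Atf3 cells of the other class left out. Slc11a2 in promyelinating against other cells turned to -0.19 without immune or erythroid reads and -0.10 without the Atf3 cells of the other class. Against cycling cells it turned to 0.34 and 0.20 with limma and 0.11 when thinned. Ireb2 turned to -0.17, -0.12 and -0.01 in these 3 settings for cycling against other cells, and to 0.19, 0.14 and 0.29 for promyelinating against cycling cells. The cause was not tested. On single plates, with no test, 4 of 42 values turned: leaving out each plate in turn gave -1.78 to 0.56 for Tfrc and -0.45 to 0.21 for Ireb2 between promyelinating and cycling cells, and -0.41 to 0.27 for Slc11a2 and -0.06 to 0.08 for Ftl1 between promyelinating and other cells. Of 48 shares of cells with a read recomputed on thinned cells or at 5 reads or more, 16 moved by more than the SD between plates.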
